A study of Macaca mulatta with 12 samples.

Results

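The genes described here form the WNT signalling module of rhesus macaque embryonic stem (ES) cells and skin fibroblasts: secreted WNT ligands, their Frizzled (FZD) and LRP receptors, secreted inhibitors, R-spondins with their LGR receptors, and a few feedback and nuclear genes. They were taken by gene symbol through a rule that names no expression value, although earlier results of these data were known when it was written, and 49 of the 14132 genes named on the array belonged to the module. These were 17 WNT genes, PORCN, 9 FZD genes, LRP5 and LRP6, 4 DKK and 4 SFRP genes, WIF1, 3 RSPO genes, LGR4 and LGR5, AXIN2, NKD1 and NKD2, and TCF7, TCF7L1 and TCF7L2. The 49 genes were carried by 89 probe sets, and 21 genes had more than 1.

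The study searched for imprinted genes by comparing ES lines with and without a paternal genome on single-sample Affymetrix arrays, with 3 biological replicates (A, B and C) for each of 4 cell populations. The fibroblasts came from a skin biopsy of an adult male rhesus macaque, 9 years old. ORMES-9 and rPESC-2 are parthenogenetic ES lines, made from eggs that developed without fertilisation, and ORMES-22 is an ES line from a fertilised blastocyst with genomes of both parents. All 3 ES lines are labelled female, so sex differed between them and the fibroblasts. ORMES-9 is called a homozygous parthenote in its descriptions and in the series design, but its source label names a fertilised blastocyst, and it was treated here as parthenogenetic. rPESC-2 is labelled heterozygous. Each group is 1 line or 1 biopsy, so p-values measure the spread between cultures of that line and not between lines or animals. ES cells grew on mouse embryonic fibroblast feeders in serum-containing medium, colonies judged undifferentiated were picked for RNA, and the fibroblasts were grown without feeders. The arrays of ORMES-9 were from passages 13, 14 and 16, those of rPESC-2 from passages 16, 10 and 16, and those of ORMES-22 from passages 18, 21 and 19.

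In the canonical branch of the pathway, a WNT protein that has been given its lipid by PORCN binds a Frizzled receptor together with LRP5 or LRP6. This stops the breakdown of beta-catenin, which then works with TCF proteins on target genes such as AXIN2, itself a brake on the pathway. DKK proteins block the LRP co-receptors, SFRP proteins and WIF1 bind WNTs outside the cell, and R-spondins acting through LGR receptors keep Frizzleds at the cell surface. In mammalian embryos and in ES cells, WNT signals take part in the balance between self-renewal and entry into mesoderm and endoderm, and DKK1 is also made by the anterior endoderm.

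The labelled populations were set against marker genes before the module was read. The 8 measured pluripotency markers averaged 4.97 to 5.17 on the log2 scale in fibroblasts, against 10.19 to 10.36 in ORMES-9, 10.35 to 10.40 in rPESC-2 and 10.22 to 10.31 in ORMES-22. In fibroblasts SOX2 and LIN28B were at background, read here from probe sets for bacterial control RNA, whose 90th percentile was 4.26. The NANOG probe set went against the others, at 9.53 in fibroblasts and 8.21 over the ES lines. The 9 measured fibroblast markers averaged 11.25 to 11.32 in fibroblasts, against 7.44 to 7.72 in ORMES-9, 7.25 to 7.84 in rPESC-2 and 7.87 to 8.11 in ORMES-22, and LUM and FAP were at background in every ES line. Of the 9, limma called 7 higher in fibroblasts. DCN and THY1 went against the others, at 6.7 and 9.4 in fibroblasts and 7.1 and 9.7 over the ES lines. Array ORMES-22 A stood apart from its replicates: it correlated with B and C at 0.986 and 0.984 over all probe sets, while all other pairs within a group correlated at 0.993 to 0.997. Module calls that it decides are also given without it, as are the values of some named genes that it moves.

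Most of the module gave signal above background. Of the 49 genes, 42 had group means above 4.26 in all 4 populations, against 11500 of the 14132 genes. WNT6, WNT8A, WNT11, FZD5, FZD10 and WIF1 were above it in some populations, and WNT2, a ligand, in none. The highest mean of a gene lay in fibroblasts for 15 genes, in ORMES-9 for 4, in rPESC-2 for 10 and in ORMES-22 for 20. These counts take in differences of any size, such as WNT8B at 4.38 in ORMES-22 and 4.36 in ORMES-9. No count over all genes is given beside them, so they are not read as a trait of the module.

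**Figure D1:**
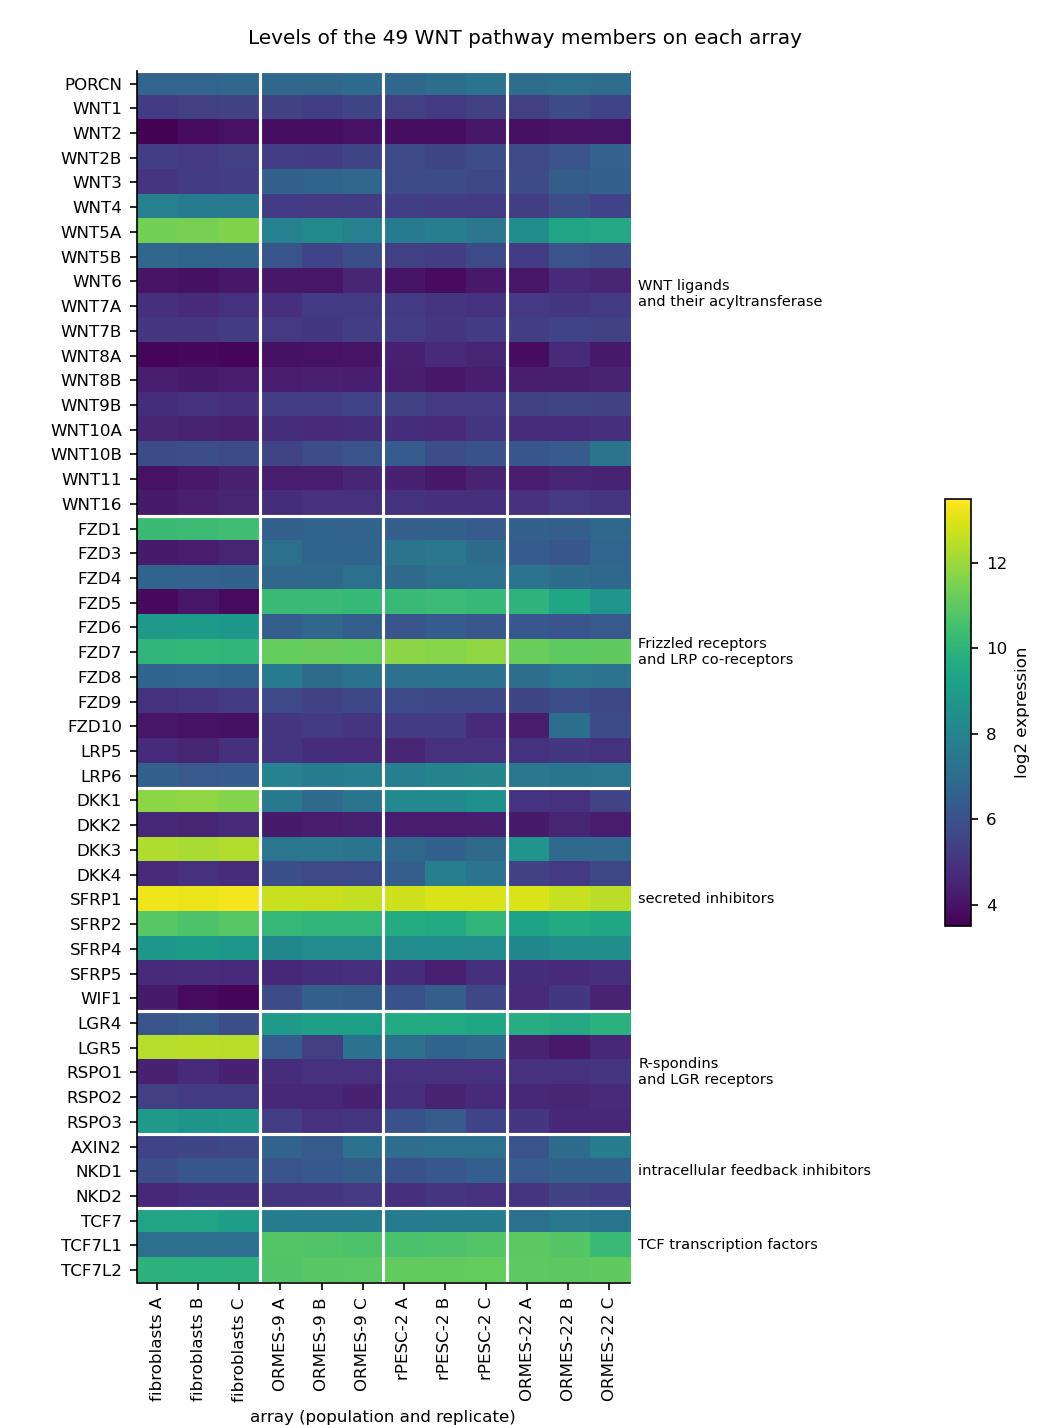
Expression of the 49 WNT module genes on all 12 arrays. Rows are genes grouped by role and columns are arrays in the order fibroblasts, ORMES-9, rPESC-2 and ORMES-22. Colour is the deposited log2 value, to be read along a row only. LGR5, DKK1, DKK3 and RSPO3 are brightest in fibroblasts, whereas FZD5, TCF7L1 and LGR4 are darkest there.

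The first question was whether the parthenogenetic lines differed from the fertilised line in these genes. A gene was called where it differed by 2-fold or more and limma's p, after Benjamini-Hochberg adjustment, stayed under 0.05. In ORMES-9, 3 of the 49 genes were called higher and 1 lower than in ORMES-22 (6.12% and 2.04%), against 1.39% and 0.892% of all genes. In rPESC-2, 5 were called higher and 1 lower (10.2% and 2.04%), against 1.03% and 0.665% of all genes. Both comparisons use the same ORMES-22 arrays, so they are not independent of each other, and each gene's values are given side by side. The median difference of the 49 genes was -0.07 on the log2 scale in ORMES-9, beside -0.01 over all genes, and -0.04 in rPESC-2, beside -0.03. Arrays of the 2 lines did not overlap for 18 of the 49 genes in each comparison, and for 3480 and 3274 of all genes. An unadjusted p under 0.05 was found for 16 of the 49 genes in ORMES-9 and 18 in rPESC-2, and for 3386 and 3646 of all 14132 genes. Unadjusted counts given below are to be read beside these.

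The secreted inhibitors held most of the genes that were higher. DKK1, which binds LRP6 and blocks it, had log2 values of 7.55, 6.91 and 7.36 in ORMES-9 and 8.28, 8.23 and 8.54 in rPESC-2, against 5.02, 4.91 and 5.54 in ORMES-22. Every parthenogenetic array lay above every ORMES-22 array. ORMES-9 was 4.34-fold higher (log2 difference 2.12, SE 0.18, adjusted p = 2.49e-05), and rPESC-2 was 9.14-fold higher (3.19, SE 0.18, adjusted p = 1.8e-06). WIF1, which binds WNT proteins directly, had 5.80, 6.57 and 6.46 in ORMES-9 and 6.02, 6.52 and 5.64 in rPESC-2, against 4.70, 5.12 and 4.46 in ORMES-22. Again no array overlapped. WIF1 was 2.85-fold higher in ORMES-9 (1.51, SE 0.26, adjusted p = 0.00391) and 2.46-fold higher in rPESC-2 (1.30, SE 0.26, adjusted p = 0.0144). The call in rPESC-2 was lost without array rPESC-2 B (1.07, adjusted p = 0.0669) or without ORMES-22 C (1.15, adjusted p = 0.0508). In bulk RNA, a larger share of cells that make a transcript and more transcript per cell cannot be told apart.

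DKK4, a DKK1 relative and in human cells a target of the pathway itself, followed another pattern. It had 5.96, 5.71 and 5.75 in ORMES-9 and 6.54, 7.78 and 7.32 in rPESC-2, against 5.47, 5.18 and 5.68 in ORMES-22. All rPESC-2 arrays lay above the other ES arrays. The difference from ORMES-22 was 1.77 in rPESC-2 (SE 0.24, 3.41-fold, adjusted p = 0.00135), and DKK4 was not called in ORMES-9. The other secreted inhibitors (DKK2, DKK3, SFRP1, SFRP2, SFRP4 and SFRP5) were not called between the ES lines, with differences from ORMES-22 of -0.10 to 0.65 in ORMES-9 and -0.72 to 0.33 in rPESC-2. The nearest was SFRP2, at 10.17, 10.06 and 10.03 in ORMES-9 against 9.31, 9.63 and 9.38 in ORMES-22 (difference 0.65, under 2-fold, adjusted p = 0.00784). DKK3 set the lower end of both ranges and depended on 1 array of ORMES-22, with 8.70 in A and 6.92 in both B and C. Without array A its difference was 0.49 in ORMES-9 (adjusted p = 0.00963) and -0.13 in rPESC-2 (adjusted p = 0.472).

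Of the 5 R-spondin and LGR genes, 1 was called in ORMES-9 and 2 were called in rPESC-2, all higher. LGR5, an R-spondin receptor and stem cell marker of epithelia, had 6.38, 5.41 and 7.26 in ORMES-9 and 7.19, 6.74 and 6.85 in rPESC-2, against 4.45, 4.18 and 4.67 in ORMES-22. The parthenogenetic arrays lay above all ORMES-22 arrays, which were near background. LGR5 was higher by 1.92 in ORMES-9 (SE 0.34, 3.78-fold, adjusted p = 0.00504) and by 2.49 in rPESC-2 (SE 0.34, 5.62-fold, adjusted p = 0.00136). The ORMES-9 call was lost when only the arrays of ORMES-9 and ORMES-22 were fitted (adjusted p = 0.098). A second LGR5 probe set showed 0.20 in ORMES-9 and 0.36 in rPESC-2 and was not called in either. RSPO3, a ligand of the LGR receptors, had 5.32, 4.91 and 5.00 in ORMES-9 and 6.02, 6.36 and 5.50 in rPESC-2, against 5.09, 4.60 and 4.60 in ORMES-22. It was called in rPESC-2 (1.19, SE 0.20, 2.29-fold, adjusted p = 0.0057), and without array rPESC-2 B its difference was 0.99, just under 2-fold. Its difference in ORMES-9 was not called. LGR4, RSPO1 and RSPO2 were not called in these comparisons, and LGR4 was -0.63 in ORMES-9 (adjusted p = 0.0121).

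**Figure D2:**
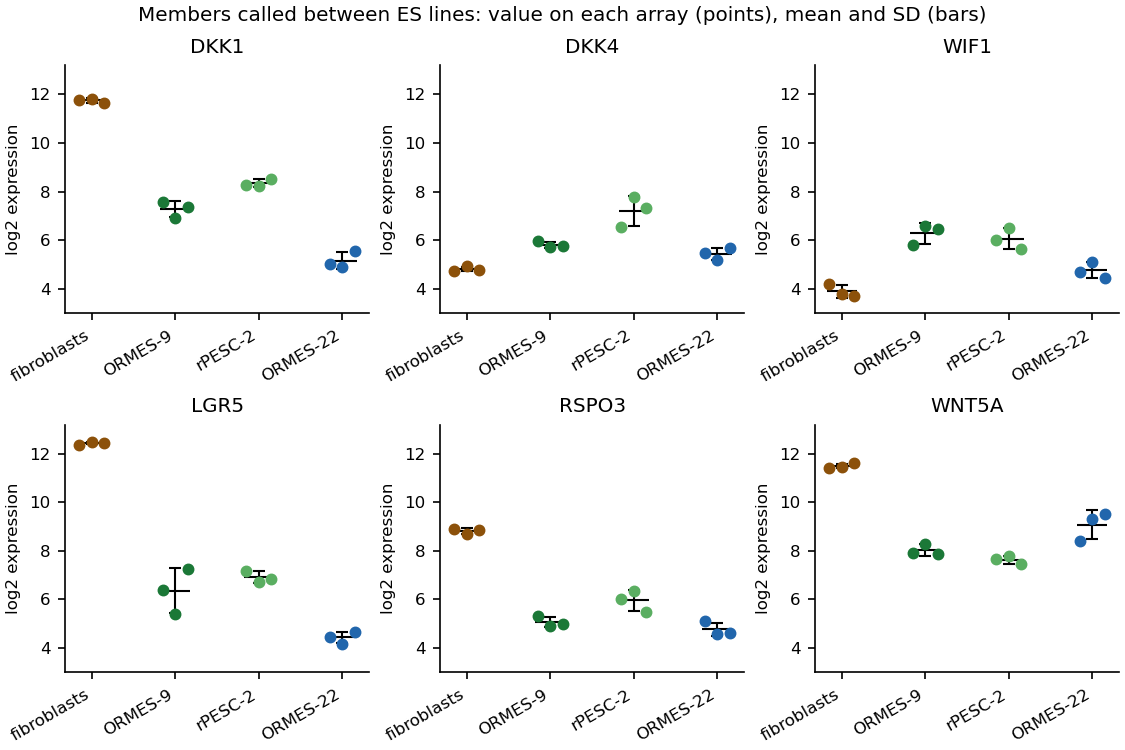
Log2 expression of the module genes called between ES lines, by array. Each panel is 1 gene, points are the 3 arrays of each population in the order fibroblasts, ORMES-9, rPESC-2 and ORMES-22, and bars are the mean and SD. DKK1, LGR5 and WIF1 are lowest in ORMES-22 among the ES lines, DKK4 and RSPO3 are highest in rPESC-2, and WNT5A is highest in ORMES-22.

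WNT5A was the only ligand called, and it was lower. WNT5A, which acts mainly through beta-catenin-independent signalling in cell movement and polarity, had 7.91, 8.30 and 7.86 in ORMES-9 and 7.65, 7.78 and 7.46 in rPESC-2, against 8.39, 9.33 and 9.52 in ORMES-22. No parthenogenetic array reached the lowest ORMES-22 value, which was that of array A. The difference was -1.06 in ORMES-9 (SE 0.24, adjusted p = 0.0204) and -1.45 in rPESC-2 (SE 0.24, adjusted p = 0.0044). One of its 2 other probe sets was also called, at -1.07 in ORMES-9 and -1.43 in rPESC-2, and the remaining one was not (-0.57 and -0.77). The ORMES-9 call rested on single arrays: leaving out ORMES-9 A, ORMES-9 C, ORMES-22 B or ORMES-22 C ended it (adjusted p 0.0603 to 0.0817), while without ORMES-22 A the difference was -1.40 (adjusted p = 6.11e-05). Without that array WNT5A in rPESC-2 was at -1.79 (adjusted p = 1.03e-05).

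The other 16 WNT genes and PORCN were not called. Their differences from ORMES-22 ran from -0.79 to 0.43 in ORMES-9 and from -0.54 to 0.31 in rPESC-2. WNT2B had the smallest p among them in ORMES-9, at -0.76 (adjusted p = 0.0372). The 9 Frizzleds and 2 LRP co-receptors were not called by limma in either comparison, and 4 of the 11 had an unadjusted p under 0.05 in each. FZD3, FZD7 and LRP6 differed in rPESC-2 by less than 2-fold, at 0.83 (adjusted p = 0.019), 0.65 (adjusted p = 0.000649) and 0.51 (adjusted p = 0.0125). Other probe sets of FZD3 did not share its direction, at -1.01 (adjusted p = 0.138) and -0.10 (adjusted p = 0.737), while the second FZD7 probe set was at 0.70 (adjusted p = 0.00144) and the second LRP6 one at 0.15 (adjusted p = 0.524). In ORMES-9 FZD6 was at 0.41 (adjusted p = 0.0294). AXIN2, NKD1 and NKD2, feedback genes that the pathway turns on in many cell types, showed -0.24 to -0.18 in ORMES-9 and -0.34 to 0.17 in rPESC-2, with no call. AXIN2 itself had 6.70, 6.33 and 7.22 in ORMES-9 and 7.07, 7.16 and 7.14 in rPESC-2, against 6.06, 7.04 and 7.75 in ORMES-22, so all 3 lines overlapped. Without ORMES-22 A the AXIN2 difference was -0.65 in ORMES-9 (adjusted p = 0.101), and in rPESC-2 it changed sign to -0.28 (adjusted p = 0.479). The TCF genes showed -0.13 to 0.32 in ORMES-9 and -0.02 to 0.31 in rPESC-2.

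Array ORMES-22 A decided some of these outcomes. Without it, 7 genes were called in ORMES-9, against 4 with it, and 8 in rPESC-2, against 6. The share of all genes called without this array is not given here, so the rise cannot be read as particular to the module. FZD5, a receptor, became higher in both (1.20 in ORMES-9, adjusted p = 0.000892, and 1.21 in rPESC-2, adjusted p = 0.000808). FZD10 became lower in both (-1.37, adjusted p = 0.00978, and -1.39, adjusted p = 0.00783), and WNT10B became lower in ORMES-9 (-1.01, adjusted p = 0.0223). With all arrays, FZD5 had 10.32, 10.30 and 10.20 in ORMES-9 and 10.27, 10.36 and 10.20 in rPESC-2, against 10.01, 9.44 and 8.70 in ORMES-22. FZD10 had 5.07, 5.19 and 5.03 in ORMES-9 and 5.27, 5.27 and 4.70 in rPESC-2, against 4.29, 7.13 and 5.81 in ORMES-22, where the 3 arrays spread more than for any other gene of the module (SD 1.42).

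Some endoderm markers moved with the DKK1, WIF1 and LGR5 differences. The mean of the 6 measured endoderm markers was 7.73, 7.27 and 7.77 in ORMES-9 and 7.83, 7.86 and 8.01 in rPESC-2, against 5.95, 6.09 and 6.51 in ORMES-22. In ORMES-9 SOX17, FOXA2 and GATA6 were called higher (2.37, 2.33 and 2.14), and in rPESC-2 SOX17, GATA6, CER1 and FOXA2 (2.92, 2.78, 2.21 and 1.89). GATA4 and AFP were not called in either line. GATA6 had its highest mean in the fibroblasts, at 9.37 against 7.57 over the ES lines, so it was not particular to endoderm here. None of the 6 was at background in an ES line. Among the ES lines, the fibroblast marker means given above were lower in the parthenogenetic lines than in ORMES-22, although 0 of the 9 markers were called by limma in either comparison (4 in ORMES-9 and 3 in rPESC-2 at an unadjusted p under 0.05). Without ORMES-22 A, VIM was called lower in ORMES-9 (-1.13, adjusted p = 0.00405) and THY1 lower in rPESC-2 (-1.11, adjusted p = 0.000191), and no fibroblast marker was called higher. THY1 had a lower mean in the fibroblasts (9.42) than in ORMES-22 (10.06), so it does not mark fibroblasts in these data. Smooth muscle marker means were also lower in the parthenogenetic lines (8.88 to 9.18 in ORMES-9 and 9.40 to 9.55 in rPESC-2, against 9.79 to 10.00 in ORMES-22), as was WNT5A. Of those 3 markers, 1 was called, MYH11, lower in ORMES-9 (6.61, 6.83 and 7.05, against 8.34, 8.38 and 8.68 in ORMES-22). Of 5 endothelial markers, 1 was called, TEK, lower in ORMES-9 than in ORMES-22 (7.36, 7.82 and 8.38 against 9.99, 9.94 and 10.51). In rPESC-2 TEK had 10.09, 9.98 and 10.10, within the ORMES-22 range, and ORMES-9 was called lower than rPESC-2 too. PAX6, the 1 neuroectoderm marker measured, had 4.39, 4.41 and 4.83 in ORMES-9 and 4.78, 4.11 and 4.38 in rPESC-2, against 4.56, 5.89 and 6.68 in ORMES-22. It was not called with all arrays, and was called lower without ORMES-22 A (-1.74 in ORMES-9, adjusted p = 0.000471, and -1.86 in rPESC-2, adjusted p = 0.000283). Against ORMES-22, limma called 0 of 7 primitive streak and mesoderm markers and 0 of 5 trophoblast markers in either line. Of the 7, 2 had an unadjusted p under 0.05 in each line, and of the 5, 0 in ORMES-9 and 1 in rPESC-2. Without ORMES-22 A, the trophoblast marker TFAP2C was called lower in rPESC-2 (-1.44, adjusted p = 0.0436). The part of any of these cell types in the module's differences was not tested.

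The parthenogenetic lines were next compared with each other. In ORMES-9, limma called 0 of the 49 genes higher and 2 lower (4.08%) than in rPESC-2, against 0.764% and 0.87% of all genes. An unadjusted p under 0.05 was found for 12 of the 49, and for 3045 of all 14132 genes. Both genes called were DKK genes. DKK4 was lower by 1.41 in ORMES-9 (log2 difference -1.41, SE 0.24, adjusted p = 0.00479), and DKK1 by 1.07 (log2 difference -1.07, SE 0.18, adjusted p = 0.00446). The array values above do not overlap for either gene. DKK1 fell under 2-fold without ORMES-9 B (-0.89) or rPESC-2 C (-0.98). WNT3, a canonical ligand needed for gastrulation in mice, had 6.61, 6.73 and 6.82 in ORMES-9 against 5.81, 5.79 and 5.68 in rPESC-2, a 1.95-fold difference (0.96, SE 0.16, adjusted p = 0.00435) that missed the fold minimum. FZD7, a main Frizzled of human ES cells, had 11.15, 11.16 and 11.12 in ORMES-9 against 11.77, 11.68 and 11.85 in rPESC-2 (-0.62, adjusted p = 0.000639). RSPO3 was at -0.88 (adjusted p = 0.026). FZD3 was not called on the probe set used (-0.40), but a second one was called higher in ORMES-9 (2.13, SE 0.36, adjusted p = 0.00444), so its probe sets disagreed. The count depended on single arrays: without ORMES-9 A it was 4, with WNT3 (1.02) added as higher and RSPO3 as lower, and without ORMES-9 B it was 1.

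**Figure D3:**
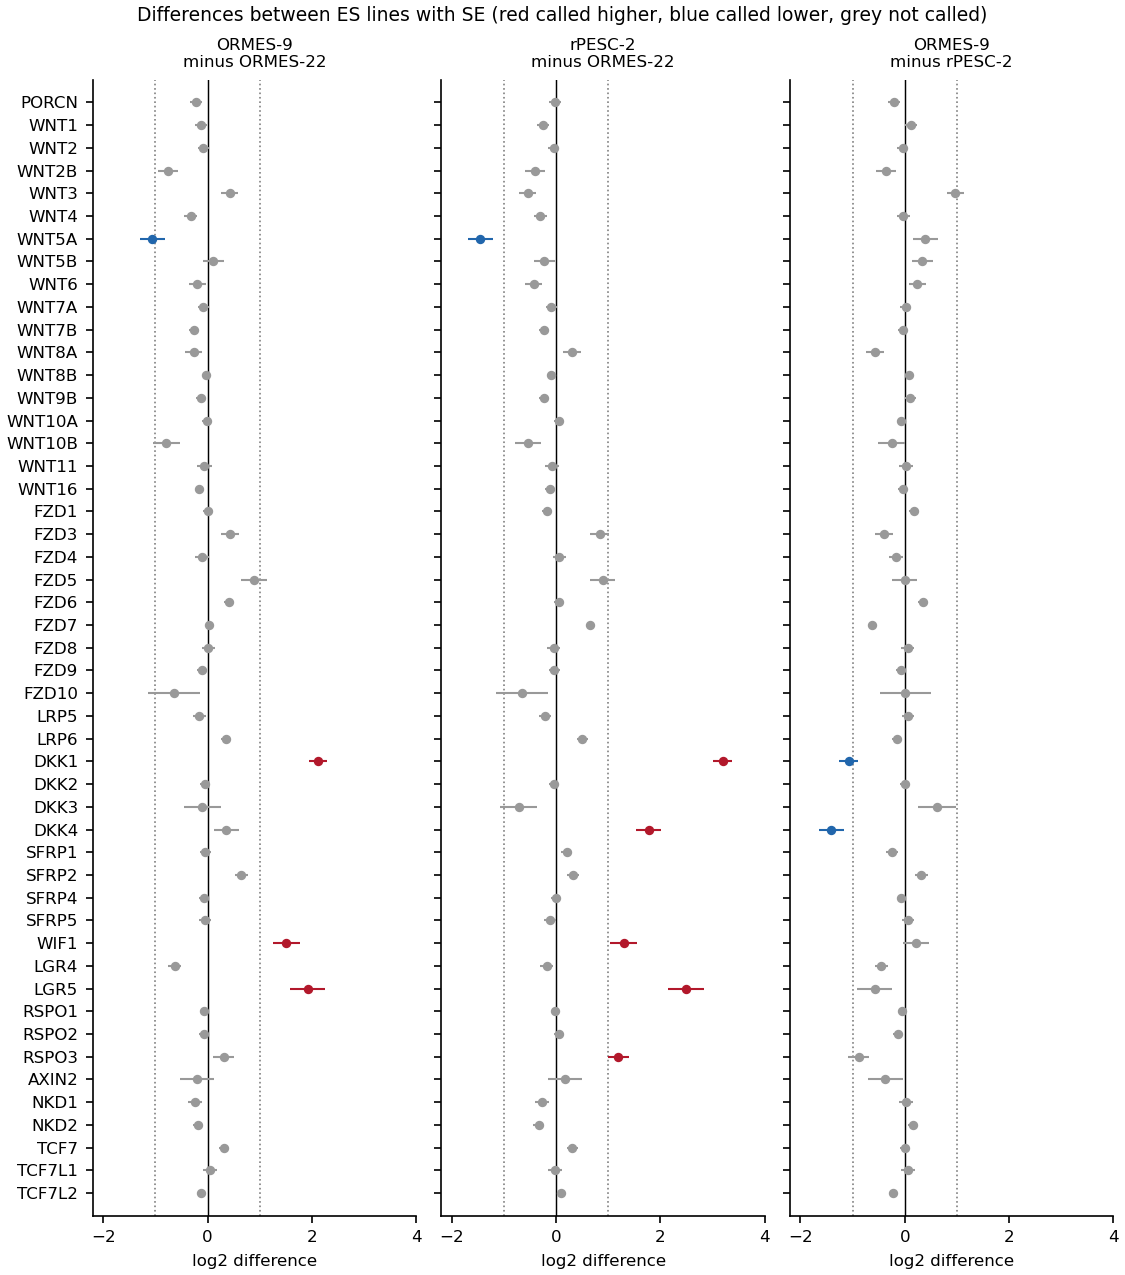
Log2 differences of the 49 genes between ES lines, for ORMES-9 minus ORMES-22, rPESC-2 minus ORMES-22 and ORMES-9 minus rPESC-2. Points are limma estimates, bars are 1 SE, red points were called higher, blue points lower and grey points not called, and dotted lines mark 2-fold. Most points lie between the dotted lines. DKK1 stands out in the comparisons with ORMES-22, at 2.12 and 3.19.

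Of 75 other genes of the pathway, limma called 1 higher and 3 lower in ORMES-9 than in ORMES-22 (1.33% and 4%), beside the 1.39% and 0.892% of all genes. In rPESC-2 it called 3 higher and 1 lower than in ORMES-22 (4% and 1.33%), beside 1.03% and 0.665%. That count of 4 in rPESC-2 was 8 without ORMES-22 A and 2 without rPESC-2 C. In ORMES-9 against rPESC-2 it called 0 higher and 3 lower (4%), beside 0.764% and 0.87%. Among 13 measured genes for WNT release and extracellular modifiers, 0 were called by limma in ORMES-9 against ORMES-22 (3 at an unadjusted p under 0.05), where the largest differences were those of APCDD1 (-1.57, adjusted p = 0.0667) and CER1 (1.01, adjusted p = 0.0754). Without ORMES-22 A, APCDD1 was called lower in ORMES-9 (-2.26, adjusted p = 5.96e-05) and in rPESC-2 (-2.04, adjusted p = 0.000125), and so was WLS (-1.47, adjusted p = 0.0032, and -1.30, adjusted p = 0.00598). In rPESC-2, 1 was called higher, CER1, which binds WNT and Nodal and is made by anterior endoderm, and which also counts among the endoderm markers. CER1 had 8.95, 8.53 and 8.92 in rPESC-2 against 6.37, 6.81 and 6.60 in ORMES-22, with no overlap (2.21, SE 0.30, adjusted p = 0.00135). ORMES-9, at 8.30, 6.76 and 7.76, was called lower than rPESC-2 for CER1 (-1.19, adjusted p = 0.0403) and for SULF1, a sulfatase of heparan sulfate (-1.32, adjusted p = 0.0137). Of 11 co-receptor and receptor turnover genes, 1 was called lower in ORMES-9 than in ORMES-22, the low-density lipoprotein receptor relative LRP4 (-1.40, SE 0.28, adjusted p = 0.0122). Limma called 0 of the 11 in rPESC-2 against ORMES-22 (5 at an unadjusted p under 0.05), where LRP4 was at -0.85 (adjusted p = 0.116; called without ORMES-22 A, at -1.30) and the WNT5A receptor ROR2 at 0.75 (adjusted p = 0.00712). It also called 0 in ORMES-9 against rPESC-2 (4 at an unadjusted p under 0.05), where VANGL1 was at 0.86 and ROR1 at -0.64.

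Of 31 intracellular genes, PRICKLE1, a planar polarity gene, was called higher than in ORMES-22 in ORMES-9 (1.09, adjusted p = 0.00144) and in rPESC-2 (1.11, adjusted p = 0.00197). PRICKLE1 had 9.73, 9.40 and 10.02 in ORMES-9 and 9.53, 9.72 and 9.98 in rPESC-2, against 8.42, 8.82 and 8.64 in ORMES-22. Among the ES lines, CTNNBIP1, which keeps beta-catenin from TCF, was lowest in ORMES-9. It had 6.15, 6.34 and 6.06 there and 7.30, 7.47 and 7.19 in rPESC-2, against 7.61, 7.31 and 7.03 in ORMES-22. It was called lower in ORMES-9 than in rPESC-2 (-1.13, adjusted p = 0.000395) and than in ORMES-22 (-1.13, adjusted p = 0.000338). Without ORMES-22 A, the ORMES-9 differences of PRICKLE1 (0.99) and CTNNBIP1 (-0.99) from ORMES-22 fell under 2-fold. PRICKLE2 was also lower in ORMES-9 (-1.01, adjusted p = 0.00111) and CXXC4, a binder of Dishevelled, in rPESC-2 (-1.02, adjusted p = 0.0108). Of 20 measured target genes, TNFRSF19 was called, higher in rPESC-2 than in ORMES-22, with 9.21, 8.89 and 9.03 in rPESC-2 against 6.86, 7.93 and 8.14 in ORMES-22 (1.40, SE 0.25, adjusted p = 0.00724). Without ORMES-22 A its difference was 1.01 (adjusted p = 9.35e-05), and CCND1 was called lower in rPESC-2 than in ORMES-22 (-1.08, adjusted p = 0.0052). Limma called 0 target genes in ORMES-9 against ORMES-22 and 0 against rPESC-2, with 4 and 5 at an unadjusted p under 0.05. The largest differences there were FGF18 (-0.73, adjusted p = 0.0915, and called without ORMES-22 A at -1.02) and VCAN (-0.62, adjusted p = 0.0626) against ORMES-22, and SP5 (-1.09, adjusted p = 0.0618) and TNFRSF19 (-0.96, adjusted p = 0.0455) against rPESC-2.

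The second question was how the module differed between a differentiated cell and the ES lines. In fibroblasts, limma called 11 of the 49 genes higher and 12 lower than the mean of the 3 ES lines (22.4% and 24.5%), against 12.9% and 14.5% of all genes. The median difference was -0.26 for the 49 genes and -0.15 for all genes. Fibroblast arrays did not overlap ES arrays for 35 of the 49 genes, and for 8123 of all genes. Donor, sex, culture and cell type cannot be told apart in this comparison. ES values below are the lowest, the median and the highest of 9 arrays.

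Among ligands, 3 were called higher in fibroblasts and 1 lower. WNT5A had 11.42, 11.45 and 11.61 in fibroblasts, against 7.46, 7.91 and 9.52 over the ES arrays, and was 9.51-fold higher (3.25, SE 0.19, adjusted p = 1.91e-08). WNT4, a ligand needed for kidney and ovary development in mice, had 7.90, 7.65 and 7.62 in fibroblasts, against 5.18, 5.29 and 5.86 in ES cells (2.37, SE 0.10, 5.17-fold, adjusted p = 9.4e-10). For both genes every fibroblast array was above every ES array. WNT5B, a close relative of WNT5A, was higher by 1.09 (SE 0.17, adjusted p = 0.00013), and WNT3 was at -1.06 (SE 0.13, adjusted p = 1.93e-05). WNT3 had other probe sets that were not called (-0.33 and -0.63), and without fibroblast array A it fell under 2-fold (-0.98). Set against a single ES line, WNT3 (-0.56 against rPESC-2) and WNT5B (0.94 against ORMES-9) also missed the fold minimum. PORCN and the 13 remaining WNT genes had differences of -0.61 to -0.06 and were not called, although 7 of these 14 had an adjusted p under 0.05.

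Receptors differed in both directions. FZD5 had 3.77, 4.10 and 3.80 in fibroblasts, at background, against 8.70, 10.20 and 10.36 in ES cells. The fitted difference was -6.09 (SE 0.20, adjusted p = 6.25e-11). Set against the background of 4.26 in place of the fibroblast level, FZD5 was at least 52.7-fold lower, the largest decrease in the module, and a second FZD5 probe set was called at -1.59. FZD3, a receptor of axon guidance and planar polarity in mice, had 4.21, 4.25 and 4.54 in fibroblasts, against 6.18, 6.75 and 7.46 in ES cells (-2.53, SE 0.14, adjusted p = 1.19e-08). FZD1 went the other way, with 10.33, 10.36 and 10.42 in fibroblasts against 6.37, 6.58 and 6.83 in ES cells (3.77, SE 0.07, 13.7-fold, adjusted p = 6.23e-13). FZD6 had 8.91, 8.97 and 8.81 in fibroblasts against 6.12, 6.29 and 6.79 in ES cells (2.54, SE 0.08, 5.81-fold, adjusted p = 5.14e-11). None of these 4 receptors had an ES array inside the fibroblast range.

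FZD7 was lower in fibroblasts by less (-1.25, SE 0.06, adjusted p = 5.14e-09), with 10.09, 10.10 and 10.08 in fibroblasts against 11.02, 11.16 and 11.85 in ES cells. FZD10 was called lower (-1.30, SE 0.41, adjusted p = 0.0157), with its fibroblast mean of 4.01 at background, but lost the call without fibroblast array B (adjusted p = 0.0538) or C (adjusted p = 0.055), and its other probe set was at 0.06. LRP6 was at -1.31 (SE 0.08, adjusted p = 2.42e-08) on the probe set with the higher mean and at 1.41 (adjusted p = 7.29e-08) on its other one, so the 2 probe sets gave opposite calls and no direction is given for this gene. FZD4, FZD8, FZD9 and LRP5 were not called (-0.61 to -0.20).

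Secreted inhibitors included some of the widest differences. DKK1 had 11.77, 11.83 and 11.66 in fibroblasts, against 4.91, 7.36 and 8.54 in ES cells, with no overlap (4.82, SE 0.15, 28.3-fold, adjusted p = 3.85e-11). DKK3, a divergent family member that does not block LRP6 as DKK1 does, had 12.31, 12.22 and 12.35 in fibroblasts, against 6.59, 6.96 and 8.70 in ES cells (5.06, SE 0.29, 33.3-fold, adjusted p = 1.54e-08). The highest ES value of DKK3 was that of array ORMES-22 A. Of the 5 other DKK3 probe sets, 2 were called at 5.56 and 2.90 and 3 were not. SFRP2, a WNT-binding inhibitor, had 10.89, 10.73 and 10.90 in fibroblasts against 9.31, 9.66 and 10.17 in ES cells (1.08, 2.11-fold, SE 0.10, adjusted p = 1.31e-06), but was under 2-fold against ORMES-9 alone (0.75) and after quantile normalisation (0.95). WIF1 and DKK4 ran opposite to these: WIF1 had 4.21, 3.79 and 3.69 in fibroblasts against 4.46, 5.80 and 6.57 in ES cells (-1.80, SE 0.21, adjusted p = 1.07e-05; fibroblasts at background, at least 2.72-fold lower), and DKK4 had 4.74, 4.92 and 4.79 in fibroblasts against 5.18, 5.75 and 7.78 in ES cells (-1.34, SE 0.20, adjusted p = 8.03e-05). Set against ORMES-22 alone, neither reached 2-fold (WIF1 -0.87, DKK4 -0.63). DKK2, SFRP1, SFRP4 and SFRP5 were not called. SFRP1 was at 0.53 on the probe set used, and at 1.27 and 2.02, both called, on its other ones.

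**Figure D4:**
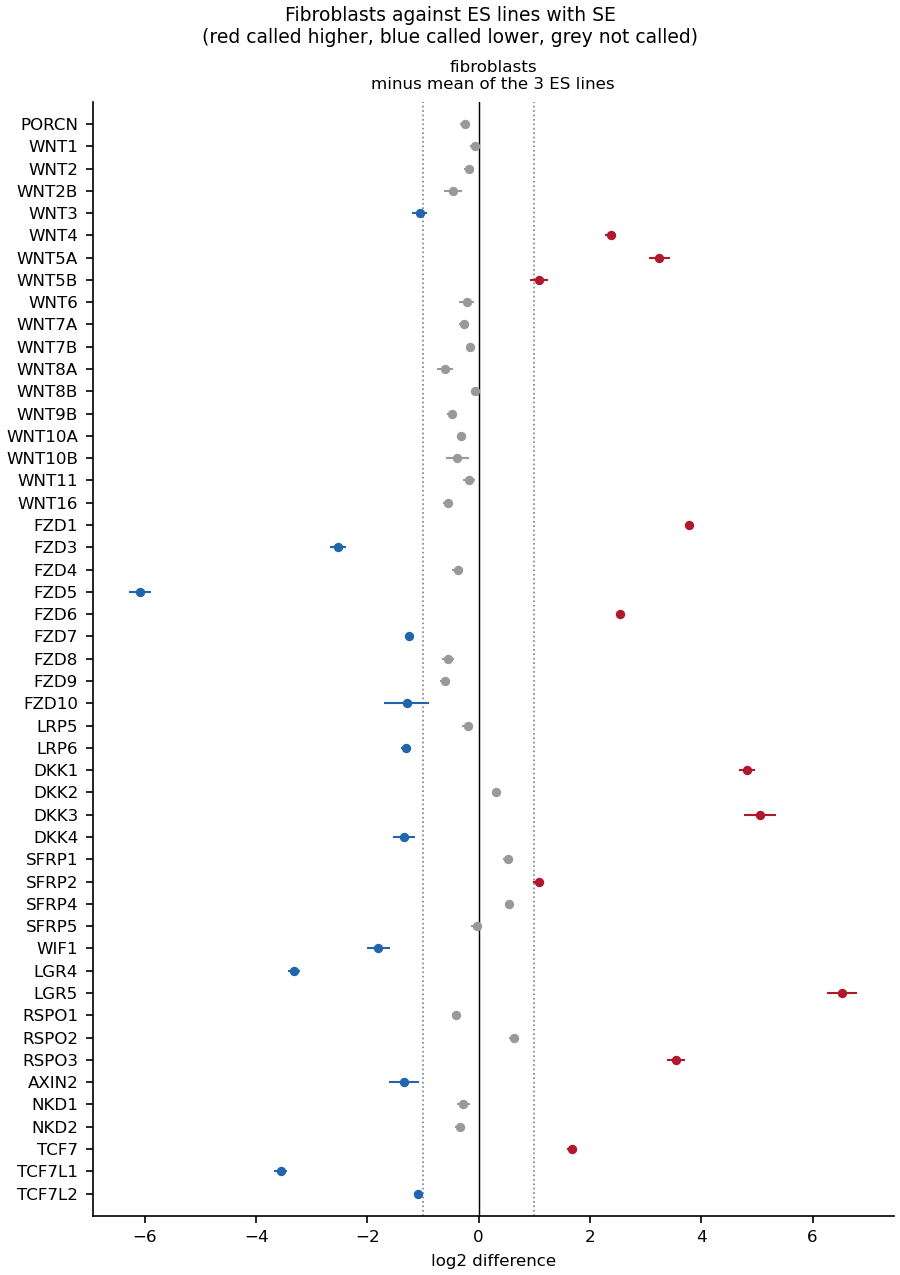
Log2 differences of the 49 genes, fibroblasts minus the mean of the 3 ES lines, grouped by role. Points are limma estimates with bars of 1 SE, red where called higher, blue where called lower and grey where not called, and dotted lines mark 2-fold. LGR5 (6.53), DKK3 (5.06) and DKK1 (4.82) lie farthest to the right, and FZD5 (-6.09), TCF7L1 (-3.56) and LGR4 (-3.32) farthest to the left.

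R-spondin genes and their receptors were split. LGR5 had 12.38, 12.48 and 12.44 in fibroblasts, against 4.18, 6.38 and 7.26 in ES cells, the largest increase in the module (6.53, SE 0.28, 92.2-fold, adjusted p = 8.12e-10). Its second probe set was also called, at 5.58. RSPO3 had 8.92, 8.68 and 8.84 in fibroblasts, against 4.60, 5.09 and 6.36 in ES cells (3.55, SE 0.17, 11.7-fold, adjusted p = 2e-09). LGR4, the relative of LGR5 that is found in many tissues, had 6.11, 6.34 and 5.92 in fibroblasts, against 8.88, 9.55 and 9.88 in ES cells (-3.32, SE 0.10, adjusted p = 5.06e-11). The groups did not overlap for these 3 genes. A second LGR4 probe set was not called (-0.25). RSPO1 (-0.41) and RSPO2 (0.63) were not called.

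Of the nuclear genes, TCF7L1, which mainly represses target genes in ES cells, had 7.20, 7.19 and 7.14 in fibroblasts, against 10.33, 10.78 and 10.97 in ES cells (-3.56, SE 0.11, 11.8-fold, adjusted p = 4.88e-11). TCF7L2 was lower too (-1.08, SE 0.05, adjusted p = 3.02e-09), with 9.96, 9.88 and 9.91 in fibroblasts against 10.80, 11.00 and 11.13 in ES cells, and 4 of its 5 other probe sets were called lower. Against ORMES-9 alone it was at -0.96, under 2-fold. TCF7, which mainly activates targets, was higher on the probe set used (1.67, SE 0.08, 3.19-fold, adjusted p = 2.47e-09). One of its other probe sets was called higher (1.44) and one was not called (-0.86). Among feedback genes AXIN2 had 5.52, 5.60 and 5.66 in fibroblasts, below every ES array (-1.35, SE 0.27, adjusted p = 0.000953), while its 3 other probe sets were not called (-0.32 to -0.22). NKD1 (-0.27) and NKD2 (-0.34) were not called.

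**Figure D5:**
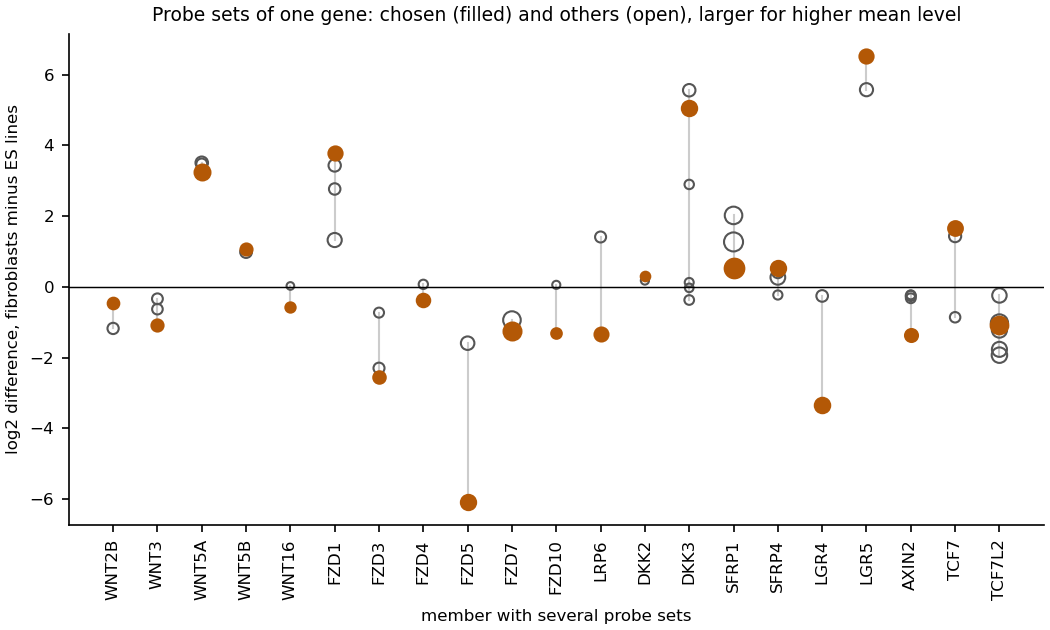
Log2 difference, fibroblasts minus the ES lines, for every probe set of the 21 module genes with more than 1. Filled points are the probe sets used, open points the others, and a larger point has a higher mean level. The 2 LRP6 probe sets lie on opposite sides of 0, at -1.31 and 1.41.

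Probe sets of a gene did not always give the same call. The 15 genes called in fibroblasts that had several probe sets held 31 other ones, of which 15 were called in the same direction, 15 were not called and 1 was called in the opposite direction. SFRP1 and WNT2B were not called but had another probe set that was. DKK1, DKK4, WIF1 and RSPO3 have 1 probe set each, so no second reading exists for them.

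Of the 75 other pathway genes, limma called 10 higher (13.3%) and 26 lower (34.7%) in fibroblasts, beside 12.9% and 14.5% of all genes. Of 13 genes for release and extracellular modifiers, limma called 4 higher and 4 lower. CTHRC1, a secreted matrix protein that helps WNT5A bind its receptors, had 11.22, 11.35 and 11.13 in fibroblasts, and all ES arrays were at background (at least 126-fold higher, adjusted p = 1.8e-15). IGFBP4 was also higher (3.09), and the glypicans GPC3 (-3.77) and GPC4 (-3.26) were lower. Of 11 co-receptor and turnover genes, 1 was called higher, PTK7 (1.99), and 4 lower, among them the planar polarity gene VANGL2 (-4.00), LRP4 (-3.03) and CELSR3 (-1.62). Of 31 intracellular genes, 3 were called higher and 13 lower. The corepressor TLE1 (-3.12), the kinase TNIK (-2.52) and PRICKLE1 (-2.22) were lower, and APC, a scaffold of the complex that degrades beta-catenin, was higher (2.00). Of 20 target genes, 2 were called higher, CD44 (3.17) and CCND1 (3.14), and 5 lower, among them MYCN and SP5 (-1.78), of which CD44, CCND1 and MYCN also respond to other signals. MYCN had 3.45, 3.58 and 3.75 in fibroblasts, at background, while no ES array was below 10.12 (at least 69.8-fold lower in fibroblasts).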

How the data were processed

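RNA of 12 samples was hybridised to 1 rhesus array each. The authors deposited log2 expression values per probe set, made with RMA per the submitters' processing notes, and its version was not given in the sources used here. Because RMA equalises the arrays' distributions, it would shrink any shift common to most genes, and it understates differences near background. With 99 control features removed, 52766 probe sets remained. In the platform annotation 24956 of them had 1 symbol, 361 several and 27449 none, and only those with 1 were named. All 49 module symbols were found in a current RefSeq gene table of the rhesus genome, whose coordinates were not used. A gene was represented by its brightest probe set, judged by the mean over the 12 arrays. Background was read from 42 bacterial control probe sets. No pair of arrays was identical. Precision is limited by the number of arrays.

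Group means of the 4 populations were fitted to all 12 arrays with lmFit and eBayes of limma (version 3.58.1, R 4.3.3), with 8 residual and 3.69 prior degrees of freedom. Tests were two-sided, with Benjamini-Hochberg adjustment over all 52766 probe sets, and the fit was tested on simulated data. A call needed an adjusted p under 0.05 and a 2-fold difference. Members and lists were chosen with earlier results of these data known. Genes called without overlap between groups are given in full, up to 12 per comparison by size, with up to 4 called genes of each pathway list, or the 2 largest where none was called. Other settings tried were a fit limited to the groups compared, a replicate block, quantile normalisation or median subtraction, trended or robust moderation, array weights, dim probe sets left out, adjustment over 1 probe set per gene, other fold minimums, other probe set choices, single ES lines in place of their mean, and omission of each array.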

Additional observations from a re-analysis of the deposited data

Results flagged for a closer look

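The difference from ORMES-22 was not the same in the 2 parthenogenetic lines for a pair of secreted inhibitors, by limma's test of the difference itself, which is that of ORMES-9 minus rPESC-2. For DKK1 the differences were 2.12 in ORMES-9 and 3.19 in rPESC-2, which are apart by -1.07 (SE 0.18, adjusted p = 0.00446). For DKK4 the difference in ORMES-9 less that in rPESC-2 was -1.41 (SE 0.24, adjusted p = 0.00479), and DKK4 was called against ORMES-22 in rPESC-2 (1.77). Endoderm markers averaged 7.27 to 7.77 in ORMES-9 and 7.83 to 8.01 in rPESC-2, and their part in these differences was not tested. Both genes have 1 probe set.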

How the results depend on the processing

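Counts of module genes called moved with the fold minimum, with the arrays fitted and with single arrays. With no fold minimum limma called 8 genes for ORMES-9 against ORMES-22, 9 for rPESC-2 against ORMES-22, 5 for ORMES-9 against rPESC-2 and 40 for fibroblasts, beside 4, 6, 2 and 23 with the 2-fold minimum. Shares of all genes called are not given for these other settings. In the fibroblast comparison 10395 of all 14132 genes had an unadjusted p under 0.05, so a high count there is not particular to the module. At 3-fold the counts were 2 for ORMES-9 against ORMES-22, 3 for rPESC-2 against ORMES-22, 0 for ORMES-9 against rPESC-2 (12 at an unadjusted p under 0.05) and 14 for fibroblasts. Fitting only the groups compared left 2 calls for ORMES-9 and 2 for rPESC-2 against ORMES-22, and LGR5 and WNT5A in ORMES-9 (adjusted p = 0.098 and 0.168) and DKK4, WNT5A, WIF1 and RSPO3 in rPESC-2 (0.0568, 0.0822, 0.0813 and 0.087) lost their calls. Leaving out 1 array at a time gave 3 to 7 calls for ORMES-9 against ORMES-22, 4 to 8 for rPESC-2 against ORMES-22, 1 to 4 for ORMES-9 against rPESC-2 and 22 to 23 for fibroblasts. DKK1 was called against ORMES-22 in both lines under every alternative run. LRP6 in fibroblasts turned to 0.0492 with the mean of its probe sets and to 1.41 with its most variable one. The mean of the probe sets also took TCF7 to 0.75, AXIN2 to -0.53, FZD10 to -0.62 and WNT3 to -0.67, all under 2-fold. With the replicate block the counts were 4, 6, 2 and 23, as without it. Deviations of arrays of the same letter from their group means correlated at -0.31 to 0.27. The labels do not say whether a letter marks a shared day or batch, and with so few arrays per population these correlations cannot settle it. Signal near background limits what can be said of WNT2, WNT6, WNT8A and WNT11.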

Other observations

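Replicates of a line differed among themselves in several WNT genes, noticed after the values were seen and given here as values. In ORMES-22, array A was the lowest of the 3 for 26 of the 49 module genes (53.1%), against 40.2% of all genes. Beside AXIN2, WNT5A and FZD10 described above, WNT3 had 5.84 in A, 6.45 in B and 6.61 in C, and the target gene SP5 had 6.34, 7.06 and 7.41. WLS, the carrier that takes WNT proteins to the cell surface, had 8.20, 10.41 and 10.25 in the same order, and APCDD1, a membrane-bound WNT inhibitor, had 7.85, 10.44 and 9.41. The neuroectoderm marker PAX6 had 4.56, 5.89 and 6.68, and its part in these values was not tested. In ORMES-9, array B was the lowest for LGR5 (5.41), AXIN2 (6.33), SP5 (5.95), DKK1 (6.91) and CER1 (6.76), and array C the highest for LGR5 (7.26), AXIN2 (7.22) and SP5 (7.12). The arrays of a line came from different passages or cultures, and the part of passage in these values was not tested.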
